A study of Drosophila melanogaster with 17 samples.

Results

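The 7 rhodopsin genes of Drosophila melanogaster, ninaE, Rh2, Rh3, Rh4, Rh5, Rh6 and Rh7, were followed through 8 head transcriptomes that differ in genotype and age. They were chosen by their FlyBase symbols and located in the deposited head count table through their FlyBase gene identifiers. All 7 were present among its 23882 features, and all 7 passed the low-count filter that left 12243 genes for testing. Heads were taken from orco2 and w1118 animals aged 40 days and from orco2 and w1118 animals aged 3 days, and each of these 4 groups was sequenced as 2 libraries. The orco2 line carries a mutant allele of Orco, the co-receptor that most odorant receptors need, and w1118 is the line the submitters call wild type. All flies were mated males, kept 20 to a vial at 25 °C and 60% humidity in cycles of 12 hours of light and 12 hours of dark, and heads were collected 8 hours after lights on. The labels do not say how many flies went into a library or whether the libraries came from separate cohorts, so p-values below measure only the spread between these libraries.

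Rhodopsins are light-sensitive G protein-coupled receptors that carry a vitamin A-derived chromophore. In fly photoreceptors, light-activated rhodopsin signals through a Gq protein and a phospholipase C to open TRP and TRPL channels, and arrestins end the signal. Each unit of the compound eye holds outer photoreceptors, named R1 to R6, and a pair of inner ones, R7 above R8. The outer cells make the ninaE product, Rhodopsin 1. In the pale type of unit R7 makes Rh3 and R8 makes Rh5, and in the yellow type R7 makes Rh4 and R8 makes Rh6. Rh2 is the rhodopsin of the ocelli, the simple eyes on top of the head, and Rh7 has been described in clock neurons of the brain.

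In the dm6 assembly, ninaE (FBgn0002940) lies on the minus strand of chromosome arm 3R at 19886255 to 19888206. Rh2 (FBgn0003248) is at 18899423 to 18901019 on the plus strand of 3R. Rh3 (FBgn0003249) is a single-exon gene at 20081060 to 20082450 on the minus strand of 3R, and Rh6 (FBgn0019940) is at 15483158 to 15484699 on the plus strand of the same arm. Rh4 (FBgn0003250) is at 16852527 to 16862517 on the minus strand of 3L, and Rh7 (FBgn0036260) is at 12164205 to 12175482 on that same strand and arm. Rh5 (FBgn0014019) is on the plus strand of 2L at 12008153 to 12009832. The intron of Rh4 holds 3 genes on the opposite strand, sina, sinah and CG13029, and their exons overlap the exons of Rh4 by 0 bases. No other annotated gene overlapped a rhodopsin gene. Exon lengths were 1349 to 1588 bases for 6 of the genes and 4014 bases for Rh7, so levels were compared between genes per kilobase of exon and within a gene without that division.

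The head libraries held 27082849 to 33932201 counts each. Orco, the mutated gene, had 24 and 33 counts in the orco2 day 40 libraries, against 90 and 105 in w1118 day 40, and 45 and 46 in orco2 day 3, against 251 and 205 in w1118 day 3. The eye-colour gene w, which moves pigment precursors into pigment cells, had 525 to 934 counts in the orco2 libraries, against 0 to 13 in the w1118 libraries, so the mutation of Orco, the state of w and the rest of the strain background cannot be told apart. Counts of alphaTry, a gut protease gene, were found in 2 head libraries (3655 in orco2 day 3 replicate 1 and 2410 in w1118 day 40 replicate 2) and were 0 in the other 6. The orco2 day 3 libraries also differed most from each other, with a mean chi-square per gene of 122, against 9.21 to 38.5 within the other 3 groups. Many results for the rhodopsin genes whose call, direction or size depends on these libraries are given below with and without them. Not every such case is listed. The photoreceptor genes trp, norpA, inaD, chp and Arr2 were detected in all 8 libraries, at 654 to 20445 CPM (counts scaled to a library of 1000000 counts, with TMM factors that correct for composition).

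With age, 4 of the 5 compound-eye rhodopsin transcripts rose in both genotypes, Rh6 rose in w1118, and Rh7 fell in both. In orco2 heads, ninaE, Rh3, Rh4 and Rh5 were higher at day 40 than at day 3, by 1.43- to 1.76-fold, and Rh7 was lower. In w1118 heads, ninaE, Rh3, Rh4, Rh5 and Rh6 were higher at day 40, by 1.63- to 2.82-fold, and Rh7 was lower. Between genotypes, Rh4 was higher in orco2 at both ages, Rh6 was higher in orco2 at day 3, and Rh5 was lower in orco2 at day 40. The ocellar Rh2 passed no test in these comparisons when all libraries were fitted. These calls come from edgeR's quasi-likelihood test at a Benjamini-Hochberg adjusted p under 0.05. Among all 12243 genes tested, 7.28% were called in orco2 at day 3, 4.85% higher and 2.43% lower, where 2 of the 7 rhodopsin genes were called higher and 0 lower. At day 40, 13.0% of all genes were called in orco2, 8.06% higher and 4.89% lower, with 1 rhodopsin gene in each direction. With age in orco2, 24.2% of all genes were called, 12.8% higher and 11.4% lower, and of the 7 rhodopsin genes 4 and 1. With age in w1118, 15.8% of all genes were called, 8.56% higher and 7.23% lower, and of the 7 rhodopsin genes 5 and 1.

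**Figure D1:**
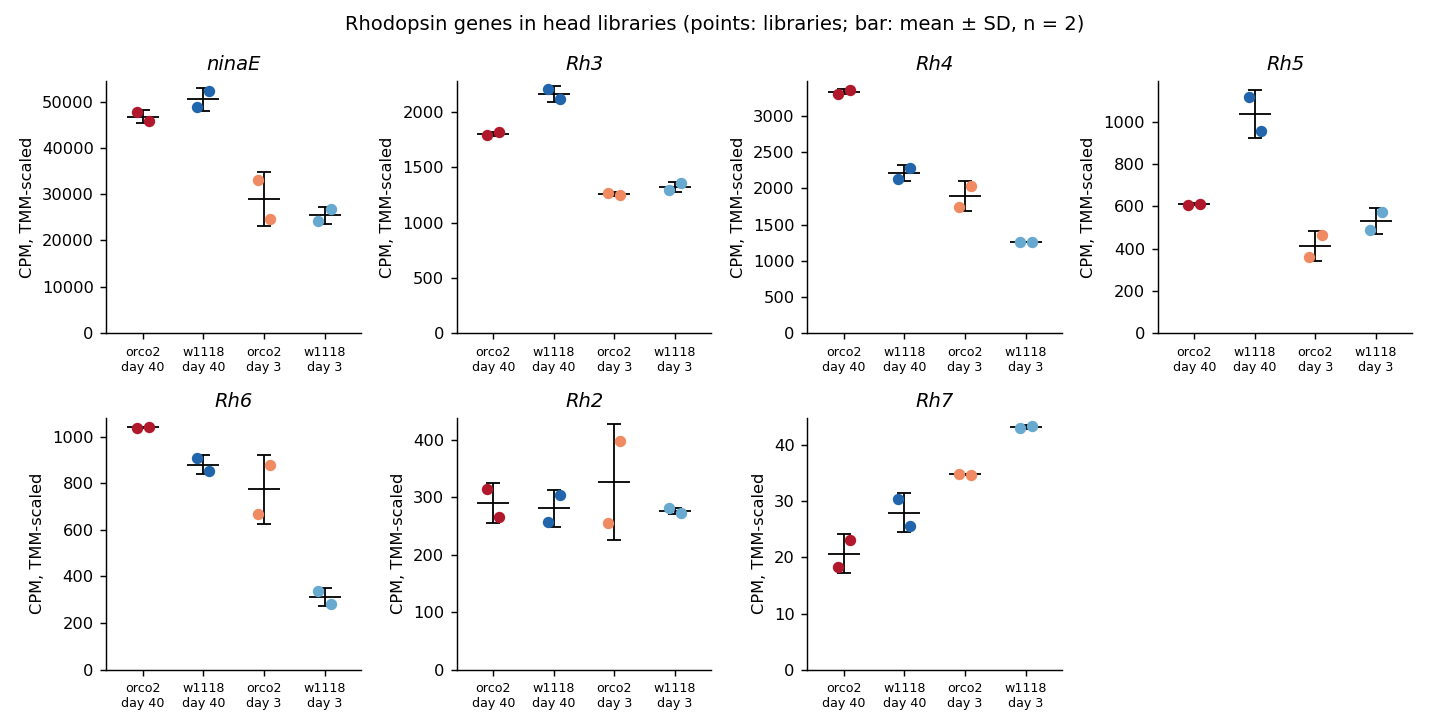
Level of each rhodopsin gene in the 8 head libraries, in TMM-scaled CPM on a linear axis that starts at 0. Points are libraries and bars the mean ± SD of 2 libraries. Rh6 sits at 283 and 340 CPM in the w1118 day 3 libraries and at 669.7 to 1042 CPM in the other 6.

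ninaE encodes Rhodopsin 1 and was the most abundant rhodopsin transcript in every group. It had 47758 and 45710.2 CPM in orco2 day 40 heads and 48741 and 52224 CPM in w1118 day 40 heads. It had 33009 and 24737 CPM in orco2 day 3 heads and 24105 and 26759 CPM in w1118 day 3 heads. The 4 day 40 libraries were all above the 4 day 3 libraries, and the 2 genotypes overlapped at day 3. This single gene took 4.29% to 5.31% of all counts in the day 40 libraries and 2.44% to 3.26% in the day 3 libraries. In orco2 the level at day 40 was 1.62-fold that at day 3 (log2 fold change 0.69 ± 0.13, standard error, adjusted p = 0.00944, edgeR), and without orco2 day 40 replicate 1 the adjusted p was 0.0677 at a log2 change of 0.70. In w1118 it was 1.99-fold (0.99 ± 0.14, adjusted p = 0.00332, edgeR). The log2 age change in orco2 was 0.92 without both alphaTry libraries and 0.54 without orco2 day 3 replicate 2. The genotypes did not pass the test, with log2 changes of -0.11 ± 0.13 at day 40 (adjusted p = 0.629, edgeR) and 0.18 ± 0.13 at day 3 (adjusted p = 0.476, edgeR). The day 3 value depended on the orco2 libraries: it was -0.04 without replicate 1 and 0.36 without replicate 2, the second with an adjusted p of 0.0272.

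Rh3 and Rh4 encode the ultraviolet-sensitive rhodopsins of R7. Rh3, of the pale type, had 1790.5 and 1818 CPM in orco2 day 40 heads, against 2213 and 2116 CPM in w1118 day 40 heads. It had 1272 and 1249 CPM in orco2 day 3 heads, against 1292 and 1357 CPM in w1118 day 3 heads. Every day 40 library was above every day 3 library, and at each age both orco2 libraries were below both w1118 libraries. With age Rh3 rose 1.43-fold in orco2 (log2 0.52 ± 0.09, adjusted p = 0.0063, edgeR) and 1.63-fold in w1118 (0.71 ± 0.09, adjusted p = 0.00253, edgeR). The w1118 call was lost without w1118 day 3 replicate 1, at a log2 change of 0.67 (adjusted p = 0.0552, edgeR). Between genotypes the log2 change was -0.26 ± 0.09 at day 40 (adjusted p = 0.0982, edgeR) and -0.07 ± 0.09 at day 3 (adjusted p = 0.701, edgeR), and neither passed. Without both alphaTry libraries the day 40 value was -0.29 and passed (adjusted p = 0.0183, edgeR).

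Rh4, of the yellow type, had 3312 and 3367 CPM in orco2 day 40 heads, against 2134 and 2287 CPM in w1118 day 40 heads. It had 1748 and 2037 CPM in orco2 day 3 heads, against 1254.2 and 1253.6 CPM in w1118 day 3 heads. The 4 groups did not overlap: orco2 day 40 was highest, followed by w1118 day 40, orco2 day 3 and w1118 day 3, with each step larger than the summed SDs of the groups on either side. Rh4 rose 1.76-fold with age in both genotypes, by a log2 change of 0.82 ± 0.11 in orco2 (adjusted p = 0.00208, edgeR) and of 0.82 ± 0.11 in w1118 (adjusted p = 0.00255, edgeR). It was 1.51-fold higher in orco2 at day 40 (log2 0.60 ± 0.11, adjusted p = 0.0114, edgeR) and 1.51-fold higher at day 3 (0.59 ± 0.11, adjusted p = 0.0141, edgeR). Both genotype calls were lost when a library was left out, with little change in size. At day 40 the log2 change was 0.55 without w1118 replicate 1, 0.65 without orco2 replicate 1 and 0.59 without orco2 replicate 2, with adjusted p from 0.0752 to 0.113 in edgeR. At day 3 it was 0.59 without w1118 replicate 1 or w1118 replicate 2 (adjusted p = 0.153 and 0.141, edgeR).

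Rh5 and Rh6 encode the rhodopsins of R8, sensitive to blue and to green light. Rh5, of the pale type, had 606 and 613 CPM in orco2 day 40 heads, against 1119 and 959 CPM in w1118 day 40 heads. It had 362 and 462 CPM in orco2 day 3 heads, against 487 and 574 CPM in w1118 day 3 heads. At both ages the orco2 libraries were below the w1118 libraries, and the day 3 difference was smaller than the summed SDs. At day 40 Rh5 in orco2 was 0.586 of its w1118 level (log2 change -0.77 ± 0.15, adjusted p = 0.0169, edgeR). At day 3 the log2 change was -0.36 ± 0.15 (adjusted p = 0.209, edgeR), and it moved with single libraries of both genotypes. Without w1118 day 3 replicate 1 it was -0.48, and without w1118 day 3 replicate 2 it was -0.24. It was -0.20 without orco2 day 3 replicate 1 (adjusted p = 0.3, edgeR), -0.20 without both alphaTry libraries (adjusted p = 0.186, edgeR), and -0.57 without orco2 day 3 replicate 2, where it passed (adjusted p = 0.0294, edgeR). The day 40 call was lost without w1118 replicate 1, orco2 replicate 1 or orco2 replicate 2, at log2 changes of -0.65, -0.72 and -0.77 and adjusted p from 0.0984 to 0.155 in edgeR. Rh5 rose with age by 1.48-fold in orco2 (log2 0.56 ± 0.15, adjusted p = 0.0307, edgeR) and by 1.96-fold in w1118 (0.97 ± 0.15, adjusted p = 0.00572, edgeR). The orco2 call was lost without either orco2 day 40 library (log2 0.61 and 0.56, adjusted p = 0.126 and 0.123, edgeR), and the w1118 call without w1118 day 3 replicate 1 (0.86, adjusted p = 0.0785, edgeR).

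Rh6, of the yellow type, had 1039 and 1042 CPM in orco2 day 40 heads, against 907 and 851 CPM in w1118 day 40 heads. It had 669.7 and 879 CPM in orco2 day 3 heads, against 339.5 and 283 CPM in w1118 day 3 heads. The w1118 day 3 libraries stood apart from all others, orco2 day 3 and w1118 day 40 overlapped, and orco2 day 40 was highest. Rh6 was 2.49-fold higher in orco2 at day 3 (log2 1.31 ± 0.15, adjusted p = 0.00228, edgeR). That log2 change ran from 1.09 to 1.495 when each of the 4 libraries compared was left out in turn. Such fits leave a group with 1 library and add no support for the call. At day 40 the log2 change was 0.24 ± 0.15 and did not pass (adjusted p = 0.321, edgeR). In orco2 the log2 age change was 0.43 ± 0.15 (adjusted p = 0.0758, edgeR). It was 0.25 without orco2 day 3 replicate 1 (adjusted p = 0.158, edgeR), 0.25 without both alphaTry libraries (adjusted p = 0.105, edgeR) and 0.67 without orco2 day 3 replicate 2, where it passed (adjusted p = 0.00354, edgeR). DESeq2 called it at 0.42 (adjusted p = 0.0358). In w1118 Rh6 rose 2.82-fold with age (log2 1.497 ± 0.15, adjusted p = 0.00135, edgeR), the largest age change of the 7 genes.

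The difference between the age changes of the 2 genotypes was tested as an interaction, in which edgeR called 0 of the 7 rhodopsin genes and 0.00817% of all genes tested. At an unadjusted p under 0.05 the test gave 1 rhodopsin gene, DESeq2 called 1 and limma-voom called 0. That gene was Rh6, whose log2 age change in orco2 was lower by 1.07 ± 0.21 than in w1118 (unadjusted p = 0.00106, adjusted p = 0.22, edgeR; adjusted p = 0.00127, DESeq2). Without both alphaTry libraries the difference was -1.30, and without single libraries it ran from -1.25 to -0.80. Such fits leave a group with 1 library, so only their size is given and they add no support for a call. For Rh5 the difference was -0.40 ± 0.21 (adjusted p = 0.577, edgeR). It ran from -0.57 to -0.16 without single libraries, weakest without orco2 day 3 replicate 2, and was -0.67 without both alphaTry libraries. The other 5 genes had differences from -0.29 to 0.00 on the log2 scale, none of which passed. That of ninaE was -0.29, and -0.02 without both alphaTry libraries.

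Rh2, the ocellar rhodopsin gene, had 314 and 265 CPM in orco2 day 40 heads and 257 and 303 CPM in w1118 day 40 heads. It had 255 and 398 CPM in orco2 day 3 heads and 280.3 and 273 CPM in w1118 day 3 heads. All groups overlapped, and no neighbouring groups in the order of means differed beyond their spread. The log2 changes were 0.05 ± 0.21 for genotype at day 40, 0.24 ± 0.21 for genotype at day 3, -0.17 ± 0.21 for age in orco2 and 0.02 ± 0.21 for age in w1118. The adjusted p-values were 0.548 to 0.962 in edgeR. The spread came mainly from the orco2 day 3 libraries. Without orco2 day 3 replicate 1 the genotype value at day 3 was 0.52 and the age value in orco2 was -0.45. Without replicate 2 these values were -0.14 and 0.23, with the signs reversed. Without both alphaTry libraries they were 0.53 and -0.45. Whether these changes were called also depended on which libraries were kept. Such fits leave a group with 1 library, so only sizes are given.

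Rh7 was the scarcest rhodopsin transcript. It had 18.3 and 23.1 CPM in orco2 day 40 heads, against 30.4 and 25.5 CPM in w1118 day 40 heads. It had 34.8 and 34.7 CPM in orco2 day 3 heads, against 42.9 and 43.4 CPM in w1118 day 3 heads. The 4 groups did not overlap, and their order was the reverse of that for Rh4: w1118 day 3 was highest and orco2 day 40 lowest. With age Rh7 fell to 0.595 of its day 3 level in orco2 (log2 change -0.75 ± 0.15, adjusted p = 0.0101, edgeR) and to 0.648 in w1118 (-0.63 ± 0.15, adjusted p = 0.0258, edgeR). The w1118 call was lost without any of its 4 libraries (log2 -0.76 to -0.50, adjusted p = 0.0596 to 0.194, edgeR), and the orco2 call without orco2 day 40 replicate 1 (-0.56, adjusted p = 0.103, edgeR). The genotype log2 changes were -0.44 ± 0.15 at day 40 (adjusted p = 0.0957, edgeR) and -0.31 ± 0.15 at day 3 (adjusted p = 0.261, edgeR). The day 40 value ran from -0.61 to -0.23 without single libraries, weakest without orco2 day 40 replicate 1 (adjusted p = 0.537, edgeR), and was -0.55 without both alphaTry libraries, where it passed (adjusted p = 0.0133, edgeR).

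**Figure D2:**
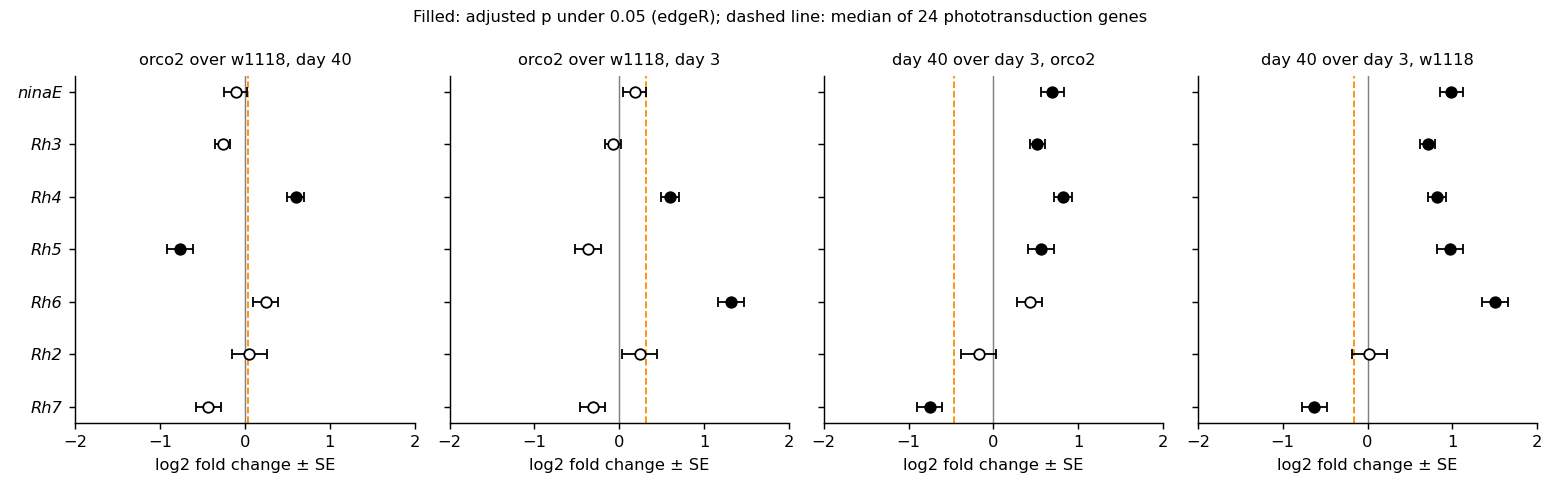
Log2 fold change ± standard error of each rhodopsin gene in the 4 comparisons between head groups, from edgeR's fit of 8 libraries. Filled points have an adjusted p under 0.05 and the dashed line is the median of 24 phototransduction genes in the same comparison. In both age comparisons ninaE, Rh3, Rh4, Rh5 and Rh6 lie right of that line, and Rh7 lies left of it.

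Per kilobase of exon, ninaE made up 85.2% of the summed rhodopsin level in orco2 day 40 heads, 87.1% in w1118 day 40, 84.4% in orco2 day 3 and 85.8% in w1118 day 3. The summed level was 35175 and 33918 CPM per kilobase in orco2 day 40 heads, against 23898 and 19204 in orco2 day 3 heads, and 35419 and 37547 in w1118 day 40 heads, against 17806 and 19532 in w1118 day 3 heads. In order of means, the R7 pair followed ninaE, then the R8 pair, then Rh2, and Rh7 came last in every group, at 0.0149% to 0.0576% of the sum. At day 3 the libraries of Rh2 overlapped those of Rh5 in orco2 heads and those of Rh6 in w1118 heads. Within the pairs the order of the means changed between groups. The mean of Rh4 exceeded that of Rh3 in 3 groups. In orco2 day 40 heads they stood at 2476 ± 28.8 and 1297 ± 13.9 CPM per kilobase (SD, n = 2). In w1118 day 40 heads their libraries overlapped, at 1639 ± 80.4 for Rh4 and 1556 ± 48.9 for Rh3 (SD, n = 2). In w1118 day 3 heads their libraries overlapped too, at 929.5 ± 0.345 for Rh4 and 952 ± 33.2 for Rh3 (SD, n = 2). By mean, Rh6 exceeded Rh5 in the orco2 groups, and Rh5 exceeded Rh6 in the w1118 groups. In w1118 day 40 heads their libraries overlapped, at 661 ± 72.2 for Rh5 and 625 ± 28.4 for Rh6 (SD, n = 2).

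The share of each pair taken by its pale-type member does not depend on how libraries are scaled. Rh3 made up 34.4% and 34.4% of the R7 pair in orco2 day 40 heads, against 50.1% and 47.3% in w1118 day 40 heads, by counts per exon length. At day 3 the values were 41.4% and 37.3% in orco2 heads, against 49.97% and 51.2% in w1118 heads. At each age both orco2 libraries were below both w1118 libraries. Rh5 made up 34.3% and 34.5% of the R8 pair in orco2 day 40 heads, against 52.5% and 50.2% in w1118 day 40 heads. At day 3 it made up 32.6% and 32.0% in orco2 heads, against 56.2% and 64.4% in w1118 heads. Again no orco2 library reached the lowest w1118 library.

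**Figure D3:**
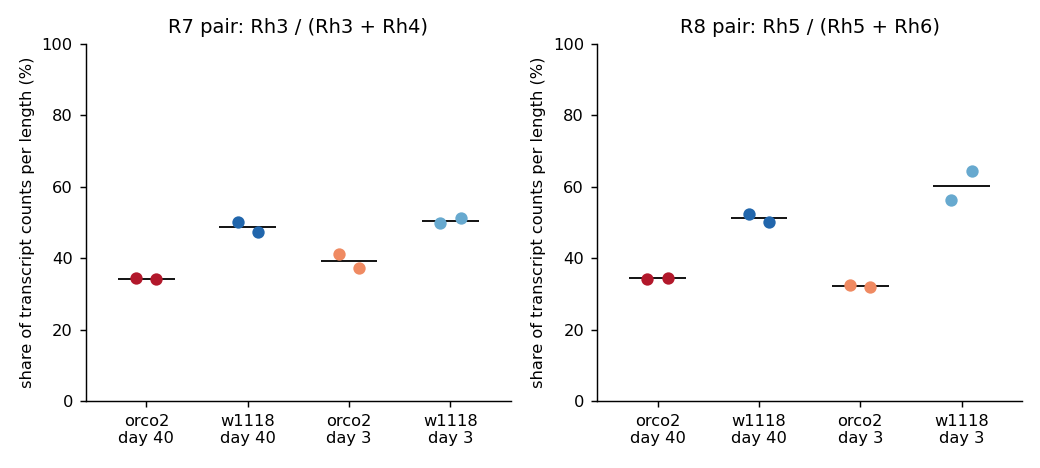
Share of Rh3 in the R7 pair and of Rh5 in the R8 pair, in percent of counts per exon length, in the 8 head libraries on an axis from 0 to 100. Points are libraries and lines their means. All 4 orco2 libraries lie between 32.0% and 41.4% in both panels, and all 4 w1118 libraries lie between 47.3% and 64.4%.

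The mean share in orco2 minus that in w1118, averaged over both ages, was -12.8 percentage points for Rh3 and -22.5 percentage points for Rh5. An exact two-sided permutation test of genotype labels within each age gave p = 0.0556 for both, the smallest its 36 splits allow, and 0.278 after Benjamini-Hochberg adjustment over 10 such tests, so this test cannot pass 0.05. Day 40 minus day 3 gave -3.41 points for Rh3 (exact permutation p = 0.111, adjusted 0.37) and -3.45 points for Rh5 (exact permutation p = 0.389, adjusted 0.778). The R7 pair summed to 12.8% ± 0.543 of the ninaE level in orco2 day 40 heads, 10.1% ± 0.392 in w1118 day 40, 13.0% ± 3.41 in orco2 day 3 and 11.8% ± 0.664 in w1118 day 3 (SD, n = 2 each). The R8 pair summed to 3.83% ± 0.135, 4.06% ± 0.514, 4.65% ± 1.77 and 3.50% ± 0.192 of ninaE in the same 4 groups (SD, n = 2 each). The genotype differences of these sums had exact permutation p-values of 0.167 and 0.722. In whole-head RNA, fewer cells of a type and less RNA per cell cannot be told apart.

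Across the 8 libraries, log2 levels of Rh3 and Rh5 had a Pearson correlation of 0.91 and those of Rh4 and Rh6 one of 0.91, while Rh3 and Rh4 had 0.61 and Rh5 and Rh6 had 0.32. ninaE correlated with Rh3 at 0.93 and with the other compound-eye genes at 0.70 to 0.76. Rh4 and Rh7 had the lowest value, -0.95, and Rh2 stayed between -0.27 and 0.25 with all others. These 8 points are 4 groups of 2 that share genotype, age and library composition, and the values are descriptions. Among 8169 genes with a mean of at least 5 CPM, the 3 most like ninaE over the same libraries were fus, CG3638 and Dysb (r = 0.982 to 0.986). For Rh3 they were Zip89B, glo and Mip (0.988 to 0.994), for Rh4 Mdr50, pug and Gnmt (0.995 to 0.999), for Rh5 foi, Tmem63 and Ssrp (0.979 to 0.982) and for Rh6 Fip1, AOX1 and Erasp (0.980 to 0.982). For Rh2 they were TfIIB, Cbp20 and Mrm2 (0.961 to 0.971), and for Rh7 Abca3, Fili and Klp68D (0.992 to 0.995).

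Transcripts of the cascade that rhodopsins drive were mostly lower or not called with age. Of 24 phototransduction genes, 0 were called higher, 11 were called lower and 13 did not pass in orco2 at day 40 against day 3, with a median log2 change of -0.47, beside -0.01 over all genes tested. In w1118, 3 were called higher, 7 lower and 14 did not pass, with a median of -0.17 beside 0.04. Over all genes tested, 12.8% were called higher and 11.4% lower with age in orco2, and 8.56% and 7.23% in w1118. In orco2 the fallen genes included rdgA, the diacylglycerol kinase (-1.25 ± 0.14, adjusted p = 0.0013, edgeR), and Calx, the sodium-calcium exchanger (-0.96 ± 0.11, adjusted p = 0.00137, edgeR). They also included Cds, which makes CDP-diacylglycerol for phosphoinositide resynthesis, and ninaC, the photoreceptor myosin kinase, at -0.82 and -0.67. In w1118, rdgA fell too (-0.88 ± 0.14, adjusted p = 0.00552, edgeR), as did laza, a lipid phosphatase (-0.54), whereas the channel gene trpl (0.58) and Arr2, the major arrestin (0.68 ± 0.13, adjusted p = 0.011, edgeR), rose. The age changes of ninaE, Rh3, Rh4, Rh5 and Rh6 lay above those of all 24 genes in both genotypes, the highest of the 24 being Arr1 at 0.25 in orco2 and Arr2 at 0.68 in w1118. That position is a description and was not tested. The margin was small for Rh3 in w1118 (0.71 ± 0.09). In orco2 Rh6 was not called (0.43 ± 0.15) and was 0.25 without orco2 day 3 replicate 1.

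**Figure D4:**
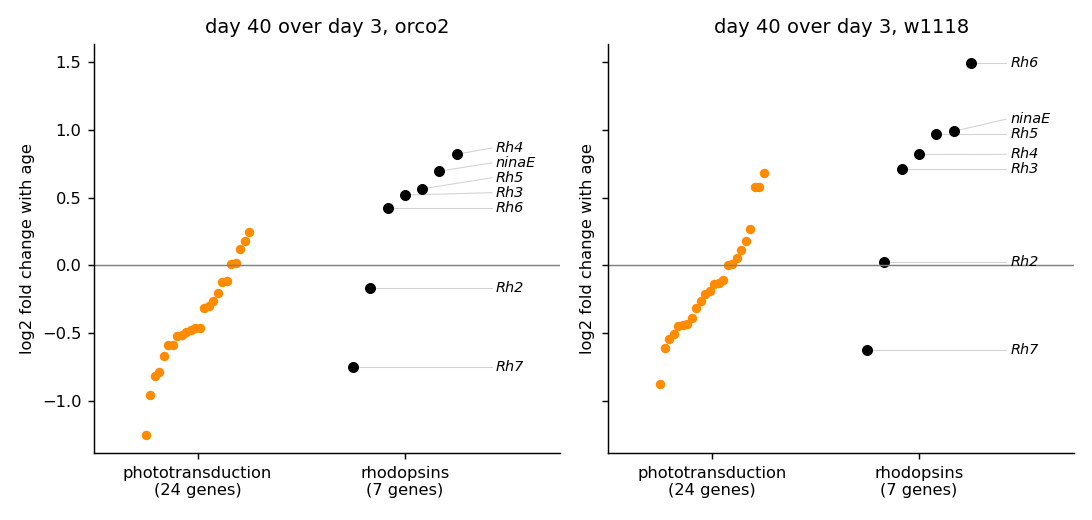
Log2 fold change at day 40 over day 3, from edgeR, for 24 phototransduction genes and the 7 rhodopsin genes in orco2 and w1118 heads. Each point is a gene, ordered by its value. The 5 compound-eye rhodopsin genes lie above all 24 phototransduction genes in both panels, and Rh2 and Rh7 lie within their range.

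Between genotypes, 8 of the 24 phototransduction genes were called higher and 2 lower in orco2 at day 3, with 14 not passing and a median log2 change of 0.32 beside 0.01 over all genes tested. Those called included stops (0.77), a regulator of phospholipase C, and the channel gene trp (0.57), both higher, and laza (-0.66) and trpl (-0.52), both lower. Rh6 at 1.31 lay above all 24. Among all genes tested, 4.85% were called higher and 2.43% lower in orco2 at day 3, and 8.06% and 4.89% at day 40. At day 40, 1 of the 24 was called higher, 3 lower and 20 did not pass, with a median of 0.04. The scaffold gene inaD was higher in orco2 (0.64 ± 0.10, adjusted p = 0.00578, edgeR), and trpl (-1.23 ± 0.09, adjusted p = 0.00041, edgeR), the rhodopsin phosphatase gene rdgC (-0.49) and calmodulin, Cam (-0.41), were lower.

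Of 13 genes of chromophore supply and rhodopsin maturation, 10 were tested. At both ages 3 were called higher in orco2 and 0 lower: pinta, a retinoid-binding protein (1.02 ± 0.13 at day 40 and 1.00 ± 0.14 at day 3), ninaD, a carotenoid-uptake scavenger receptor (3.56 ± 0.49 and 2.31 ± 0.47), and Culd, which acts in rhodopsin endocytosis (0.36 ± 0.10 and 0.67 ± 0.10). Their adjusted p-values were 0.00329 to 0.0471 at day 40 and 0.00429 to 0.0234 at day 3 in edgeR. With age pinta rose in orco2 (1.04 ± 0.13, adjusted p = 0.00216, edgeR), where the retinol dehydrogenase gene Pdh fell (-0.86 ± 0.25, adjusted p = 0.0381, edgeR), and in w1118 pinta (1.01) and Culd (0.60) rose. The list medians were 0.03 and 0.24 for genotype at day 40 and day 3, and 0.15 for age in each genotype. Of all genes tested, 8.06% were called higher and 4.89% lower in orco2 at day 40, and 4.85% and 2.43% at day 3. With age, 12.8% were called higher and 11.4% lower in orco2, and 8.56% and 7.23% in w1118.

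Of 19 transcription factors and signalling genes known to set opsin expression, melt was higher and pros lower in orco2 at day 40, and 17 did not pass, beside 13.0% of all genes called. At day 3 melt was higher, 0 were lower and 18 did not pass, beside 7.28% of all genes called. The list's counts are near those shares and are given as a description. melt acts in the choice between Rh5 and Rh6 in R8. It had 24.6 ± 2.99 CPM in orco2 day 40 heads, against 11.9 ± 0.180 CPM in w1118 day 40 heads. At day 3 it had 19.6 ± 0.872 CPM in orco2 heads, against 11.9 ± 0.628 CPM in w1118 heads (SD, n = 2 each). Its log2 change was 1.05 ± 0.14 at day 40 (adjusted p = 0.00382, edgeR) and 0.73 ± 0.14 at day 3 (adjusted p = 0.021, edgeR). pros, which keeps R8 opsins off in R7, was lower in orco2 at day 40 (-0.68 ± 0.18, adjusted p = 0.0455, edgeR). Pph13, a homeodomain activator of photoreceptor genes, rose with age in orco2 (0.41 ± 0.10, adjusted p = 0.0183, edgeR) and in w1118 (0.60 ± 0.10, adjusted p = 0.00596, edgeR). With age in orco2, onecut (-0.67), pros (-0.84, and -0.53 without both alphaTry libraries) and eya (-0.38) fell and 15 did not pass. In w1118, exd fell (-0.39) and 17 did not pass. Called with age were 24.2% of all genes in orco2 and 15.8% in w1118, and the list's age counts are also given as a description.

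Of 8 genes of the rhabdomere and eye structure, 5 fell with age in orco2 and 3 in w1118, and 0 rose in either. The shares of all genes tested that fell were 11.4% in orco2 and 7.23% in w1118, and 12.8% and 8.56% rose. Crys, a lens protein gene, fell to 0.462 CPM in orco2 day 40 heads, against 25.2 CPM in orco2 day 3 heads, and to 0.608 CPM in w1118 day 40 heads, against 26.8 CPM in w1118 day 3 heads. retinin, a corneal protein gene, fell by 2.05 ± 0.18 on the log2 scale in orco2, and in w1118 it fell by 2.32 ± 0.18. eys, which opens the space between rhabdomeres, fell by 1.46 ± 0.10 in orco2, and in w1118 it fell by 0.81 ± 0.10. The adjusted p-values of these 3 genes were 0.000303 to 0.0025 in edgeR. Between genotypes, eys and crb were lower in orco2 at day 40 (-0.45 and -0.52), and chp, which codes for a rhabdomere adhesion protein, was higher in orco2 at day 3 (0.56). Of 7 tested genes of the histamine cycle, the transmitter cycle of photoreceptors, 3 were called higher and 1 lower in orco2 at day 40, and 2 higher and 0 lower at day 3. Hdc, which makes histamine, was higher at both ages (0.38 at day 40 and 0.73 at day 3), as was e (2.04 and 0.98). Also called at day 40 were t (0.85), higher, and CarT (-0.73), lower. With age 0 rose and 3 fell in each genotype. Beside the genotype counts, 8.06% of all genes tested were called higher and 4.89% lower in orco2 at day 40, and 4.85% and 2.43% at day 3. Without both alphaTry libraries, all 77 calls of genes in these 5 lists over the 4 comparisons kept their direction. That fit leaves orco2 day 3 and w1118 day 40 with 1 library each, so it adds no support for a call. The median log2 change of the phototransduction genes for genotype was then 0.01 at day 40 and 0.46 at day 3, against 0.04 and 0.32 with all libraries. In the interaction it was -0.39, against -0.34 with all libraries.

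Markers of other tissues moved between the same libraries. The 10 fat body markers summed to 8175 to 9574 CPM in orco2 day 40 heads, 3569 to 4440.0 CPM in w1118 day 40, 4896 to 6656 CPM in orco2 day 3 and 1410.5 to 1815 CPM in w1118 day 3. Most of that sum was apolpp, the lipid-carrier protein gene, at 8837 and 7477, 3174 and 3932, 4487 and 6284, and 1327 and 1716 CPM in the same groups. By gene, 2 of the 10 were called higher and 1 lower in orco2 at day 40, and 5 higher and 0 lower at day 3. The shares over all genes tested were 8.06% and 4.89% at day 40, and 4.85% and 2.43% at day 3. All 10 were above 0 in 7 libraries, and 7 of 10 in w1118 day 3 replicate 1. The 5 neuron markers summed to 2753 to 2956, 3585 to 3955, 3853 to 5379 and 5251 to 5265 CPM in the same groups. The 4 muscle markers summed to 1282 to 1515, 1231 to 1496, 3334 to 3661 and 3676 to 3813 CPM. The 6 gut markers summed to 633 to 676, 152 to 580, 14.7 to 573 and 18.8 to 22.4 CPM, with all 6 above 0 in the 2 alphaTry libraries and 3 of 6 in the others. The part of these shifts in the rhodopsin changes was not tested. The shares within the opsin pairs are computed without these genes.

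In guts, which hold no photoreceptors, the rhodopsin genes gave a background level. Over 9 gut libraries of day 40 flies (3 each of orco2, the period mutant per01, and w1118), ninaE had a median of 3.14 CPM and ranged from 0.152 to 45.3 CPM, beside a median of 39360 CPM in heads. The highest value, 1714 counts, was in w1118 gut replicate 2, where 5 photoreceptor markers summed to 99.2 CPM, against 27.5 to 66.4 CPM in the other 8 gut libraries. The other 6 rhodopsin genes had gut medians of 0.125 to 1.32 CPM. Rh7, with a median of 0.576 CPM in guts and 32.6 CPM in heads, had the smallest ratio of head to gut medians of the 7 genes.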

How the data were processed

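RNA from heads and guts was poly(A)-selected, reverse-transcribed from random hexamers and sequenced, per the labels' protocols. The authors deposited raw counts per gene, 1 table per tissue. The submitters' processing notes name fastp, HISAT2, featureCounts, DESeq2 and the dm6 build; their versions, the strand setting and the handling of reads that fit several genes are not given in the sources used here, and such reads could touch the rhodopsin genes. Gene symbols, positions and exon lengths came from the Ensembl annotation of the same assembly, which matched 23801 of 23882 head identifiers. From the deposited counts, genes were filtered with filterByExpr (minimum count 10), scaled by TMM and tested with edgeR 4.0.16 (quasi-likelihood, R 4.3.3) with a mean for each of the 4 head groups. Library depths of 27082849 to 33932201 counts put at least 503 counts behind every rhodopsin value per head library, and 2 libraries per group limit the precision. Tests were run on simulated data first. Alternatives used DESeq2 1.42.0, limma-voom 3.58.1, no filter, raw totals, a replicate block, only the compared groups, and fits without each library. Same-numbered replicates did not deviate together, with correlations of -0.317 to 0.0205 over 6 group pairs. The rhodopsin genes and all gene lists were chosen with earlier results of these data known. From each list up to 4 called genes with the smallest p were named per comparison. BalaT had no match and was left out. Gut libraries entered no test.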

Additional observations from a re-analysis of the deposited data

How the results depend on the processing

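With 2 libraries per group, the count of rhodopsin genes called moved with the libraries and the tool, and the cause was not tested. Fitting only the compared groups gave 1 call for genotype at day 3, where Rh4 was lost (adjusted p = 0.102, edgeR), and 2 for age in orco2, where Rh3, Rh5 and Rh7 were lost; the main counts were 2 and 5. Leaving out both alphaTry libraries, an alternative added after the data were seen, gave 4 for genotype at day 40 (main count 2) and 2 for the interaction (main count 0). The interaction gave 1 without the count filter and 1 with the DESeq2 Wald test. Without single libraries the counts ran from 1 to 4 for genotype at day 3, 0 to 2 at day 40, 3 to 5 for age in w1118, 2 to 6 for age in orco2 and 0 to 1 for the interaction.

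Over all genes, the compared groups alone gave 347 calls for genotype at day 3 (main 891), 3113 at day 40 (main 1586), 3816 for age in w1118 (main 1933) and 1249 for age in orco2 (main 2968). Without the filter there were 1354 at day 3 and 176 for the interaction (main 1), with DESeq2 1506 and 186, and without both alphaTry libraries 3817, 3580 at day 40 and 614 for the interaction. Without single libraries these counts ran from 278 to 3246, 319 to 735, 447 to 936, 771 to 4500 and 0 to 408, in the order of the comparisons above. The opsin pair shares without single libraries ran from -13.8 to -11.8 points for Rh3 by genotype, -4.44 to -2.39 by age, -24.5 to -20.4 for Rh5 by genotype and -5.50 to -1.40 by age.

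The log2 changes that turned sign all belonged to genes not called. Without single libraries, the genotype change at day 3 ran from -0.0415 to 0.359 for ninaE, lowest without orco2 replicate 1, and from -0.135 to 0.525 for Rh2, lowest without orco2 replicate 2. That of Rh2 at day 40 ran from -0.0633 to 0.174, below 0 without replicate 1 of w1118 or of orco2. The age change of Rh2 ran from -0.101 to 0.136 in w1118, lowest without day 40 replicate 2, and from -0.453 to 0.226 in orco2, above 0 without day 3 replicate 2. In the interaction Rh2 ran from -0.475 to 0.228, above 0 without orco2 day 3 replicate 2. Rh4 ran from -0.102 to 0.178, below 0 without orco2 day 3 replicate 1, w1118 day 40 replicate 1 or orco2 day 40 replicate 2. Rh7 ran from -0.296 to 0.0935, above 0 without w1118 or orco2 day 40 replicate 1. Without both alphaTry libraries, ninaE turned to -0.0406 for genotype at day 3, Rh2 to -0.102 for age in w1118 and Rh4 to -0.0505 in the interaction. Scaling by raw totals shifted all genes by -0.03 to -0.16 on the log2 scale, kept the direction of every called rhodopsin change, and turned the uncalled Rh2 to -0.12 for genotype at day 40 and to -0.02 for age in w1118.

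Replicate numbers did not pair the samples; with the replicate block the calls were 2, 2, 6, 5 and 0 rhodopsin genes and 745, 1238, 1609, 2600 and 1 genes in all. In simulated data, genes changed 2-fold were recovered in 51 to 56 of 100 cases in the 4 comparisons and in 10 of 100 in the interaction. The changed genes were drawn at random above a low count, and each gene had the same dispersion in all groups. These rates are therefore not specific to the rhodopsin genes, and how many of their changes were missed was not tested.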
